A study of Mus musculus with 11 samples.

Results

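The genes described here make sterols and fatty acids. They comprise the enzymes of the mevalonate and sterol pathways, the regulators of the sterol response and the core enzymes of fatty acid synthesis. A list of 28 genes was drawn up, and each was represented by the probe set with that gene as its only symbol and, of those, the highest mean across arrays. That gave 27 of the 18194 genes measured (Acat2 was not analysed here). RNA came from dissociated muscle of Pax3GFP/+ mice, in which 1 allele of the muscle transcription factor Pax3 makes a green fluorescent reporter (GFP), and living cells were sorted on that fluorescence, so each sample holds whatever cells carried it. Mice of all groups were bred with C57BL/6J. Postnatal day 1 (P1, n = 4 arrays) and day 12 (P12, n = 4) were trunk muscle with satellite cells labelled as proliferating, and day 28 (P28, n = 3) was abdominal, pectoral and intercostal muscle with satellite cells. The labels call arrays of an age biological replicates without saying how many animals each holds, so p-values measure the spread between these samples only. The internal names of the P28 arrays carry another suffix than all other arrays and begin with the code of P1, so at P28 age, muscles and a possible batch cannot be told apart.

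Cells build cholesterol from acetyl-CoA by way of mevalonate, isoprenoid diphosphates, squalene and lanosterol. The pathway is run by the transcription factors SREBP, encoded by Srebf1 and Srebf2. When sterols are scarce, the escort protein SCAP carries SREBP from the endoplasmic reticulum to the Golgi, where proteases release the active factor, and when sterols are plentiful INSIG proteins hold SCAP back. Srebf2 is best known for driving sterol genes, and Srebf1 for driving fatty acid genes. Growing and dividing cells need both kinds of lipid for membranes, and cells can also take cholesterol up from lipoproteins.

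Median log2 values of the arrays were 5.50 to 5.58. Background, read from the bacterial Trp controls, was 3.36 to 3.64. Markers of satellite cells and myoblasts (8 measured, among them Pax3, Pax7, Myf5 and Myod1) averaged 9.64 to 10.19 on the P1 arrays, 10.13 to 10.47 at P12 and 10.53 to 10.71 at P28. From P12 to P28 the changes of these 8 were positive for 3 and negative for 5, with a median of -0.06 and a highest of 1.86. Of the 8, 2 were higher at an adjusted p under 0.05 (limma), as were 15.7% of all genes. Arrays of 1 age correlated at 0.981 to 0.994, and P28 arrays correlated with those of other ages at 0.936 to 0.966. The excess of the 3' over the 5' Gapdh probe set, a measure that grows with RNA degradation, was a log2 difference of 0.79 to 0.99 on the P28 arrays and 1.32 to 3.05 on the others. Replicates 1 and 2 of P1 and P12 (2.59 to 3.05) had larger differences than replicates 3 and 4 (1.32 to 1.69), and these pairs are called array sets 1 and 2.

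Of 17 sterol enzymes, 3 rose from P1 to P12 and 9 from P1 to P28, and 0 fell in either. Of 4 fatty acid synthesis genes 0 rose, and 1 fell from P1 to P28. Changes are log2 differences ± SE from limma over all arrays, and the words rose and fell are kept for an adjusted p under 0.05 (Benjamini-Hochberg, all 18194 genes). In P12 against P1, 5 of the 27 members rose and 0 fell, where 4.53% of all genes rose, 2.04% fell and 6.57% did either. All P12 arrays were above all P1 arrays for 7 members and below for 0 (7.34% and 4.58% of all genes). A positive difference was seen for 25 of 27, and the median change was 0.39, against 0.02 over all genes. In P28 against P12, 3 members rose and 3 fell (15.7% of all genes rose, 15.7% fell and 31.4% did either), with a median change of -0.01 against -0.03 over all genes. The arrays did not overlap for 3 members that were higher and 2 that were lower at P28 (17.5% and 19.4% of all genes). In P28 against P1, 10 rose and 1 fell (20.1% of all genes rose, 16.4% fell and 36.6% did either), with a median change of 0.39 against -0.02 over all genes. That median was 0.18 without P28 replicate 3 and 0.20 after a further quantile normalization. The arrays did not overlap for 9 members that were higher and 3 that were lower at P28 (21.6% and 20.1% of all genes). After quantile normalization 1 member (Sc5d) rose and 0 fell between P1 and P12, when 3.17% of all genes rose and 3.39% fell. Between P12 and P28 it left 3 that rose and 6 that fell (16.1% and 18.2% of all genes), and between P1 and P28 7 that rose and 6 that fell (18% and 21.7%). The comparisons share arrays, so they are given side by side and not counted against each other.

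**Figure D1:**
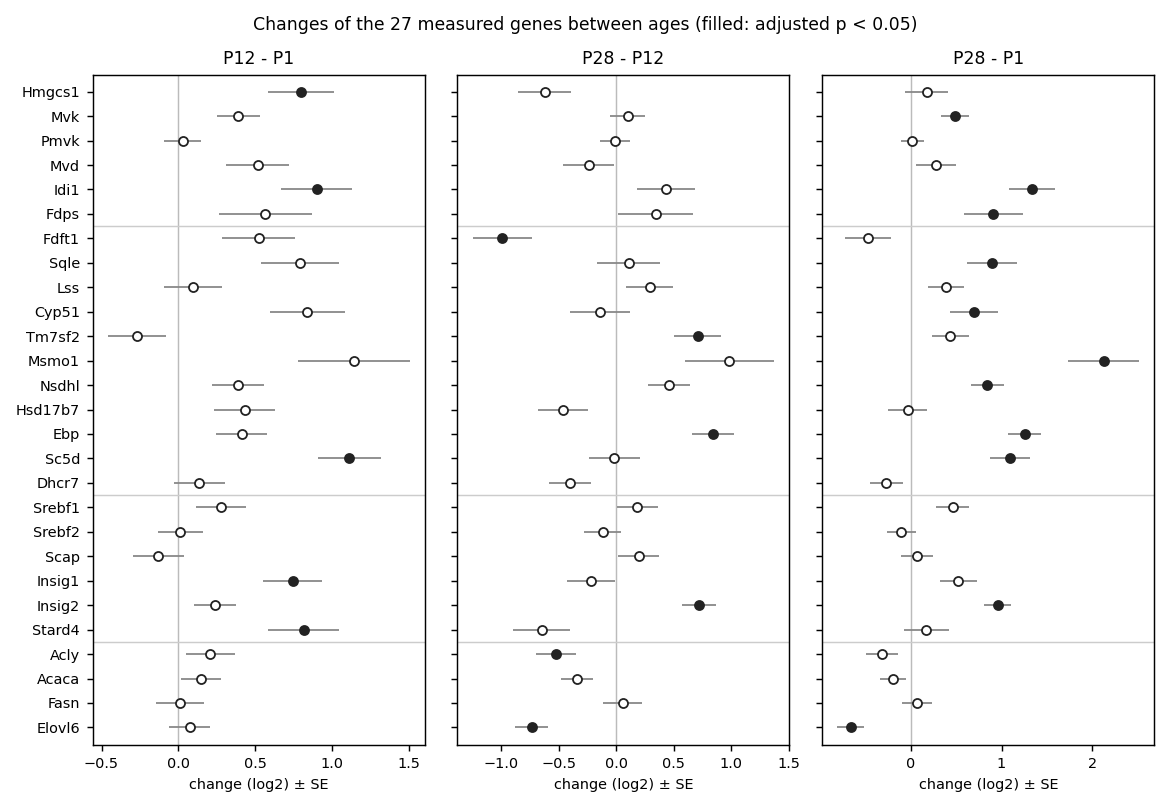
Log2 change ± SE of each of the 27 measured genes in the 3 comparisons, one row per gene, ordered from the mevalonate pathway at the top through sterol steps and regulators to fatty acid synthesis at the bottom; the 3 panels have their own x axes. Filled points passed an adjusted p under 0.05 (limma); most sterol enzymes lie to the right of 0 in P28 - P1, with Msmo1 farthest at 2.13, and Elovl6 lies at -0.66.

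Promoter sequences from RefSeq (GRCm38.p6) were matched for 24 of the 28 genes, in 32 windows. Those of Fdps, Fdft1, Sqle and Stard4 were not analysed here. The 250 bases before each start were searched on both strands for TCACNCCA, the core of the sterol regulatory element that SREBP binds, for CCAAT, the letters of the factor NF-Y, and for CCGCCC, the GC box of Sp1. The first 2 motifs can share the letters CCA. TCACNCCA was in 3 of the 32 member windows (Hmgcs1, Msmo1 and Srebf2), and in 3.67% of all 32851 windows of that length. CCAAT was in 20 of the 32 windows (19 of 24 genes) and in 33.8% of all windows. CCGCCC was in 23 of the 32 windows (20 of 24 genes) and in 32.7% of all windows. These matches are descriptions of the letters and were not tested as binding sites. The sequences of 4 members are shown because 3 hold TCACNCCA and the other, Sc5d, had the largest passing change from P1 to P12. They run 5' to 3' on the gene's strand and end at the base before the start, with TCACNCCA and CCAAT matches (on either strand) in capitals. Hmgcs1 lies at chr13:119690101-119690350 (plus strand), Msmo1 at chr8:64733579-64733828 (minus strand), Srebf2 at chr15:82147019-82147268 (plus strand) and Sc5d at chr9:42264301-42264550 (minus strand).
Hmgcs1: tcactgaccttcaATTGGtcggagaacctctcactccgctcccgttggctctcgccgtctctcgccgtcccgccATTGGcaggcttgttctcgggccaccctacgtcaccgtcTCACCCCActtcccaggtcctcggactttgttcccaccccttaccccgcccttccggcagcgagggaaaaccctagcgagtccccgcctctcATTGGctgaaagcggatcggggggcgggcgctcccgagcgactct
Msmo1: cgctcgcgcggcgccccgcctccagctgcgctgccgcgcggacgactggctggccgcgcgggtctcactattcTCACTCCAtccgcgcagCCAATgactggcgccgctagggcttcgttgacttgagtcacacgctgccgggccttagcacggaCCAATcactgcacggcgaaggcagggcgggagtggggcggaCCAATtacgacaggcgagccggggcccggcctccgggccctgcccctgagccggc
Srebf2: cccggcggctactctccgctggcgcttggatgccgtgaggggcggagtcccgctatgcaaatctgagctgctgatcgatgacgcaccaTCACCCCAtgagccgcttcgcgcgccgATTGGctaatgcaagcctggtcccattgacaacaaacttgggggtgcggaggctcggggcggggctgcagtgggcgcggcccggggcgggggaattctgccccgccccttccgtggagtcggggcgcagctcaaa
Sc5d: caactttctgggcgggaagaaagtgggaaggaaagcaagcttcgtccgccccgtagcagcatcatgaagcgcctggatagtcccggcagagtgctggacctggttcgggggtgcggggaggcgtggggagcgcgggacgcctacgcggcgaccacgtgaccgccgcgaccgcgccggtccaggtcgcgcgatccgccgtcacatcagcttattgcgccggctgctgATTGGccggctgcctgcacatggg
The TCACNCCA match lies 137 to 130 bases before the start in Hmgcs1, 177 to 170 in Msmo1 and 162 to 155 in Srebf2. Hmgcs1 and Msmo1 each have 3 CCAAT matches, and Srebf2 and Sc5d have 1 each. From P1 to P12 the log2 changes were 0.80 for Hmgcs1, 1.14 for Msmo1 (not passing), 0.01 for Srebf2 and 1.11 for Sc5d.

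In the mevalonate pathway, which turns acetyl-CoA into farnesyl diphosphate, 2 of 6 genes rose from P1 to P12 and 3 of 6 from P1 to P28. Of all genes 4.53% and 20.1% rose there. In the pathway 0 fell in any comparison. Idi1, which isomerises the basic isoprene unit, was at 8.85, 9.51, 9.07 and 9.10 on P1 replicates 1 to 4, at 10.32, 9.79, 9.54 and 10.48 on P12 replicates 1 to 4, and at 9.99, 10.40 and 10.99 on P28 replicates 1 to 3. Every P12 and P28 array was above every P1 array, and P12 and P28 overlapped. The changes were 0.90 ± 0.23 from P1 to P12 (1.87-fold, adjusted p = 0.0314), 0.43 ± 0.25 from P12 to P28 (adjusted p = 0.218) and 1.33 ± 0.25 from P1 to P28 (2.52-fold, adjusted p = 0.000776). The first of these was lost on leaving out P12 replicate 1 or 4 or P1 replicate 1, 3 or 4 (0.75 to 0.89), and the last held without any 1 array (1.07 to 1.57).

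Hmgcs1, which makes HMG-CoA at the entry of the pathway, was at 11.47, 11.85, 11.44 and 11.40 at P1, at 12.68, 12.57, 11.75 and 12.35 at P12, and at 11.33, 11.59 and 12.22 at P28. It rose by 0.80 ± 0.22 from P1 to P12 (adjusted p = 0.0386), with P12 replicate 3 below the highest P1 array. The change from P12 to P28 was -0.62 ± 0.23 (adjusted p = 0.0539), and that from P1 to P28 was 0.17 ± 0.23 (adjusted p = 0.597), so its level at P28 overlapped both earlier ages. Deviations of same-numbered P1 and P12 arrays from their age means correlated at 0.146 to 0.339. With replicate number as a block, the change from P1 to P12 had an adjusted p of 0.058. That call also ended without any array of P1 or P12 other than P1 replicate 2 and P12 replicate 3 (0.68 to 0.79).

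Fdps, which makes farnesyl diphosphate, was at 7.17, 7.35, 7.29 and 7.20 at P1, at 7.83, 7.20, 7.74 and 8.50 at P12, and at 7.37, 8.02 and 9.09 at P28. The P28 arrays lay above all P1 arrays but spanned 1.72, and the change from P1 was 0.91 ± 0.33 (adjusted p = 0.0403). Without P28 replicate 3 it was 0.45 and did not pass, and the call also ended without P28 replicate 2 (0.98) or any P1 array (0.88 to 0.94). Mvk, which phosphorylates mevalonate, was at 6.95, 7.19, 7.19 and 7.23 at P1, at 7.57, 7.34, 7.32 and 7.88 at P12, and at 7.44, 7.76 and 7.69 at P28. Mvk rose by 0.49 ± 0.15 at P28 over P1 (adjusted p = 0.0206), and all P12 and P28 arrays were above all P1 arrays. That call was lost without P1 replicate 1 (0.43) or P28 replicate 2 (0.43) or 3 (0.46). Another probe set of Mvk, at means of 7.29, 7.30 and 7.30, changed by 0.01 from P1 to P28 and did not pass. Averaged over its probe sets, Mvk changed by 0.25 from P1 to P28 (limma, adjusted p = 0.0752). Pmvk and Mvd, which carry out the next phosphorylation and the decarboxylation, passed in no comparison, with Pmvk at 8.45, 8.48 and 8.47 and Mvd at 6.74, 7.26 and 7.02 at P1, P12 and P28.

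**Figure D2:**
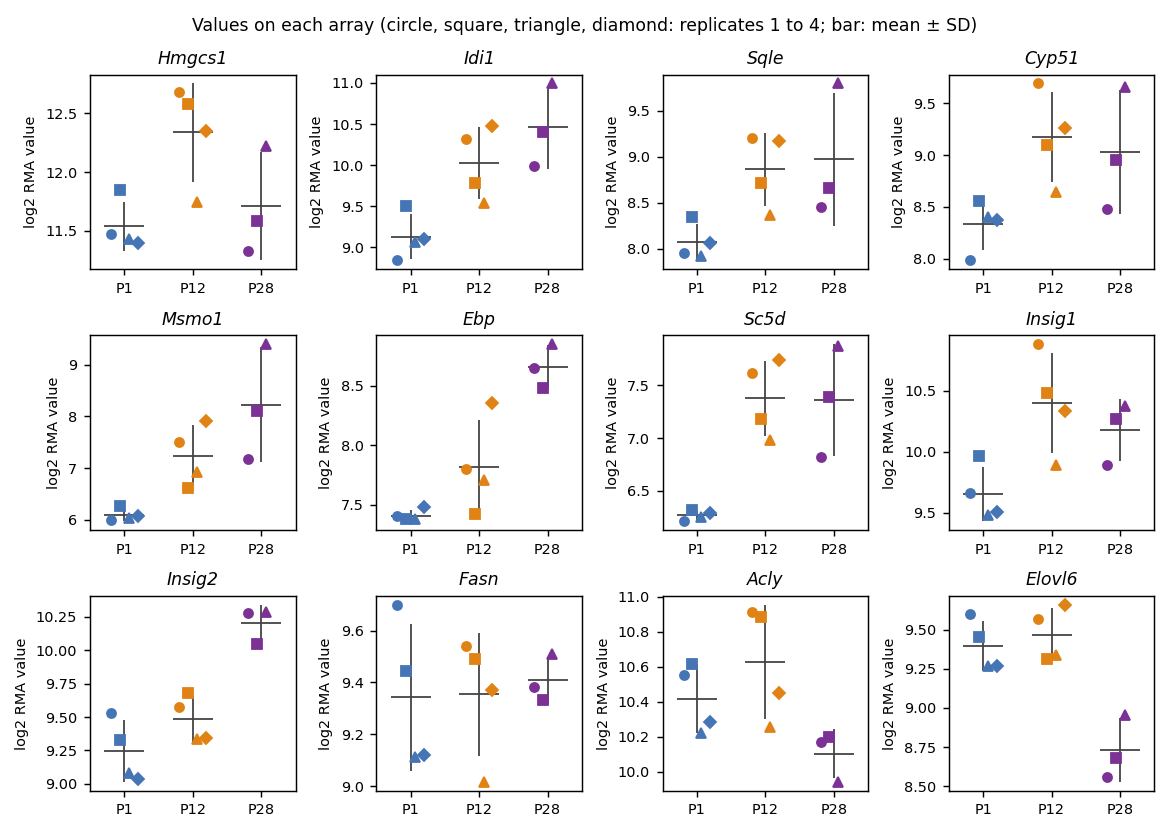
Log2 RMA value of 12 members on every array by age, with symbols for replicates 1 to 4 and a bar for the mean ± SD (n = 4, 4 and 3). Msmo1, Ebp and Idi1 are above all P1 arrays at P28, Insig2 is highest and Elovl6 lowest on the 3 P28 arrays, and Fasn overlaps at all ages.

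The enzymes that turn farnesyl diphosphate into squalene, and squalene through lanosterol into cholesterol, gave the largest changes. Of 11 such genes, 1 rose from P1 to P12 (4.53% of all genes). From P12 to P28, 2 rose and 1 fell (15.7% and 15.7% of all genes). From P1 to P28, 6 rose and 0 fell (20.1% and 16.4% of all genes). Msmo1, a methylsterol oxidase that begins the removal of methyl groups from the sterol ring, was at 6.01, 6.28, 6.04 and 6.07 at P1, at 7.52, 6.62, 6.92 and 7.92 at P12, and at 7.18, 8.10 and 9.40 at P28. All P12 and P28 arrays were above all P1 arrays, and the P28 arrays differed among themselves by 2.22. The change from P1 to P28 was 2.13 ± 0.39 (4.37-fold, adjusted p = 0.000621), and those from P1 to P12 (1.14 ± 0.36, adjusted p = 0.0752) and P12 to P28 (0.98 ± 0.39, adjusted p = 0.0697) did not pass. Blocking on array set, the change from P1 to P12 passed (adjusted p = 0.0112). Averaged with its other probe set, whose mean lay at 4.59 to 4.63 at each age, Msmo1 changed by 1.07 from P1 to P28 and still passed.

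Sc5d, the desaturase that acts late on the ring, was at 6.21, 6.31, 6.25 and 6.29 at P1, at 7.62, 7.18, 6.98 and 7.74 at P12, and at 6.82, 7.39 and 7.88 at P28. The P1 arrays lay within 0.10 of each other, and every later array was above them. It rose by 1.11 ± 0.20 from P1 to P12 (2.17-fold, adjusted p = 0.00545) and by 1.10 ± 0.22 at P28 over P1 (adjusted p = 0.00129). Between P12 and P28 the change was -0.02 ± 0.22. Both calls held without any 1 array (0.99 to 1.25 and 0.84 to 1.37), and averaging its probe sets gave 0.67 and 0.70, which passed.

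Ebp, the sterol isomerase, was at 7.40, 7.38, 7.38 and 7.48 at P1, at 7.80, 7.42, 7.71 and 8.35 at P12, and at 8.65, 8.48 and 8.85 at P28. The P28 arrays were above all others, and Ebp rose by 0.84 ± 0.18 over P12 (adjusted p = 0.00235) and by 1.25 ± 0.18 over P1 (2.38-fold, adjusted p = 7.54e-05). Nsdhl, which works after Msmo1 in the same demethylation, was at 7.12, 7.17, 7.23 and 7.27 at P1, at 7.80, 7.07, 7.46 and 8.02 at P12, and at 7.93, 8.01 and 8.18 at P28. Nsdhl rose by 0.84 ± 0.18 over P1 at P28 (adjusted p = 0.00217), and P12 overlapped both other ages. The SD over the P28 arrays was 0.18 for Ebp and 0.13 for Nsdhl, beside 1.11 for Msmo1. With replicate number as a block, the change of Nsdhl from P12 to P28 was 0.54 (adjusted p = 0.0317), and it was 0.45 ± 0.18 without the block (adjusted p = 0.0734).

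Sqle, the oxygenase that makes squalene epoxide, was at 7.95, 8.35, 7.92 and 8.06 at P1, at 9.20, 8.72, 8.37 and 9.16 at P12, and at 8.45, 8.66 and 9.80 at P28. From P1 to P28 Sqle rose by 0.90 ± 0.28, at an adjusted p of 0.0188, and the value was 0.79 ± 0.26 from P1 to P12 (adjusted p = 0.0809), and its later arrays were all above P1. Without P28 replicate 3 the change from P1 to P28 was 0.49 and did not pass, and blocking on array set that from P1 to P12 passed (adjusted p = 0.0174). Cyp51, the lanosterol demethylase, was at 7.99, 8.56, 8.41 and 8.37 at P1, at 9.69, 9.09, 8.64 and 9.26 at P12, and at 8.48, 8.96 and 9.66 at P28. Its changes from P1 were 0.84 ± 0.24 at P12 (adjusted p = 0.053) and 0.70 ± 0.26 at P28 (adjusted p = 0.0495), so only the smaller passed. The change at P12 passed when array set was blocked (adjusted p = 0.0206). All P12 arrays were above P1, and P28 overlapped it. The call at P28 ended without any P1 array (0.58 to 0.78), without P28 replicate 2 (0.74), without P28 replicate 3 (0.38) and with replicate number as a block (adjusted p = 0.0755). It also ended when the probe sets of Cyp51 were averaged (0.19). Its other probe sets changed by 0.29 and -0.42 from P1 to P28 without passing, and the latter fell from P12 to P28 (-0.85).

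Fdft1, which joins 2 farnesyl units into squalene and so commits them to sterols, was the only one of the 17 sterol enzymes to fall from P12 to P28 in the fit over all arrays. It was at 9.59, 10.09, 9.55 and 9.53 at P1, at 10.28, 10.43, 9.81 and 10.34 at P12, and at 8.49, 9.34 and 9.84 at P28. The fall from P12 to P28 was -0.99 ± 0.26 (adjusted p = 0.00827), with P28 replicate 3 overlapping P12, and it was -0.63 without P28 replicate 1. From P1 to P12 its change was 0.52 ± 0.24 (adjusted p = 0.217). That change passed when array set was blocked in a fit without the P28 arrays (adjusted p = 0.0375). The change from P12 to P28 was -0.31 over its averaged probe sets and -0.59 on another probe set, and neither passed. Tm7sf2, a sterol reductase, was at 6.02, 6.15, 5.48 and 5.55 at P1, at 5.54, 5.22, 5.59 and 5.76 at P12, and at 6.33, 6.54 and 5.82 at P28. It rose by 0.71 ± 0.20 from P12 to P28 (adjusted p = 0.0156), which ended without P28 replicate 1 (0.66) or 2 (0.55). Lss, Hsd17b7 and Dhcr7, which close the ring, reduce a keto group and finish cholesterol, passed in no comparison, with changes between -0.46 and 0.43.

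Of the 6 regulators and carriers, 2 rose from P1 to P12, 1 from P12 to P28 and 1 from P1 to P28, and 0 fell. The shares of all genes that rose were 4.53%, 15.7% and 20.1%. Srebf2 was at 9.84, 9.78, 9.24 and 9.62 at P1, at 9.61, 9.84, 9.47 and 9.61 at P12, and at 9.49, 9.34 and 9.71 at P28. All 3 ages overlapped, with changes of 0.01 ± 0.15 from P1 to P12, -0.12 ± 0.16 from P12 to P28 and -0.11 ± 0.16 from P1 to P28. After quantile normalization the last was -0.33 and passed as a fall. Srebf1 was at 8.82, 8.36, 8.07 and 8.19 at P1, at 8.85, 8.61, 8.29 and 8.80 at P12, and at 8.80, 8.83 and 8.83 at P28. Its change from P1 to P28 was 0.46 ± 0.18 (adjusted p = 0.0554), and without P1 replicate 1, the highest P1 array, it was 0.61 and passed (adjusted p = 0.00679). It also passed with replicate number as a block (adjusted p = 0.0438). Scap was at 9.09, 8.79, 8.63 and 8.72 at P1, at 8.94, 8.99, 8.22 and 8.56 at P12, and at 8.79, 8.97 and 8.86 at P28, and passed in no comparison (with the Gapdh covariate described last, 0.58 from P12 to P28 passed).

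The INSIG paralogs passed in different comparisons. Insig1, itself a target of SREBP, was at 9.66, 9.96, 9.48 and 9.50 at P1, at 10.88, 10.48, 9.89 and 10.34 at P12, and at 9.89, 10.27 and 10.38 at P28. P12 replicate 3 lay below the highest P1 array, and P28 overlapped both ages. Insig1 rose by 0.74 ± 0.19 from P1 to P12 (1.68-fold, adjusted p = 0.0299), and its changes from P12 to P28 (-0.22 ± 0.21) and from P1 to P28 (0.52 ± 0.21, adjusted p = 0.0588) did not pass. Insig2, known for less dependence on SREBP, was at 9.53, 9.33, 9.08 and 9.04 at P1, at 9.58, 9.68, 9.33 and 9.34 at P12, and at 10.28, 10.05 and 10.28 at P28. The P28 arrays were above all others, and the gene rose by 0.72 ± 0.15 from P12 (adjusted p = 0.00195) and by 0.96 ± 0.15 from P1 (1.94-fold, adjusted p = 0.000162), with 0.24 ± 0.14 from P1 to P12 (adjusted p = 0.355). The difference between the paralogs was not tested. The Insig1 call was lost on leaving out P12 replicate 1, 2 or 4 or P1 replicate 3 or 4 (0.58 to 0.77), while both calls of Insig2 held without any 1 array and on all 3 of its probe sets.

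Stard4, a carrier that moves sterol between membranes, was at 7.36, 7.80, 7.56 and 7.64 at P1, at 8.35, 7.96, 8.56 and 8.75 at P12, and at 7.21, 7.61 and 8.45 at P28. All P12 arrays were above all P1 arrays, while P28 overlapped both ages. It rose by 0.82 ± 0.23 from P1 to P12 (adjusted p = 0.0466), and its change from P12 to P28 was -0.65 ± 0.25 (adjusted p = 0.0598). The call ended without any P1 array (0.74 to 0.89) and without P12 replicate 1, 3 or 4 (0.70 to 0.84).

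Fatty acid synthesis genes rose in 0 of 4 cases in every comparison. From P12 to P28, 2 fell (15.7% of all genes), and from P1 to P28, 1 fell (16.4% of all genes). Elovl6, which lengthens the palmitate made by fatty acid synthase, was at 9.60, 9.45, 9.27 and 9.27 at P1, at 9.57, 9.31, 9.34 and 9.66 at P12, and at 8.56, 8.68 and 8.95 at P28. The P28 arrays were below all others, and the falls were -0.74 ± 0.14 from P12 (1.67-fold, adjusted p = 0.00124) and -0.66 ± 0.14 from P1 (adjusted p = 0.00221). Both held without any 1 array (-0.85 to -0.65 and -0.78 to -0.58). Acly, which makes cytosolic acetyl-CoA from citrate, was at 10.55, 10.61, 10.22 and 10.28 at P1, at 10.91, 10.89, 10.26 and 10.45 at P12, and at 10.17, 10.20 and 9.94 at P28. Its fall from P12 to P28 (-0.52 ± 0.17, adjusted p = 0.0313) ended without P12 replicate 1 (-0.43) or 2 (-0.44) or any P28 array (-0.57 to -0.44), and its averaged probe sets changed by 0.01. With the Gapdh 3' to 5' difference as a covariate the change was -0.11 (adjusted p = 0.641). From P1 to P28 its change was -0.32 ± 0.17 (adjusted p = 0.172), and with replicate number as a block it was -0.37 (adjusted p = 0.0402).

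Fasn, the fatty acid synthase, and Acaca, which makes its substrate malonyl-CoA, passed in no comparison. Mean Fasn levels at P1, P12 and P28 were 9.34 ± 0.28 (SD, n = 4), 9.35 ± 0.24 (SD, n = 4) and 9.41 ± 0.09 (SD, n = 3), and its changes were 0.01 ± 0.15, 0.05 ± 0.17 and 0.07 ± 0.17. Acaca averaged 9.20, 9.35 and 9.01, with a change of -0.34 ± 0.14 from P12 to P28 (adjusted p = 0.0766).

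The sterol enzymes differed among arrays of 1 age, a pattern looked for after the values were seen. The 17 enzymes from Hmgcs1 to Dhcr7 had a median SD of 0.13 at P1, 0.40 at P12 and 0.46 at P28, where the medians over all genes were 0.19, 0.20 and 0.17. At P28, replicate 1 was the lowest array for 15 of the 17 (34.7% of all genes) and replicate 3 the highest for 13 (32.4% of all genes). At P12, replicates 1 and 4 were both above replicates 2 and 3 for 13 of the 17 (20.6% of all genes). The 6 regulators and carriers shared the P28 order in part, with replicate 1 lowest for 4 and replicate 3 highest for 5. Their P12 replicates 1 and 4 were both above replicates 2 and 3 for 1 of the 6. The 4 fatty acid genes had median SD of 0.18, 0.21 and 0.17, and their highest P28 array was replicate 1 for Acaca, 2 for Acly and 3 for Fasn and Elovl6.

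Other lists also differed among these arrays, not all in the same order at both ages. The mean over 9 proliferation genes was 10.67 and 10.74 on P12 replicates 1 and 4, 10.38 and 10.12 on replicates 2 and 3, and 9.16, 9.29 and 9.64 on P28 replicates 1 to 3. The mean over 8 muscle fibre genes was 9.87 and 10.10 on P12 replicates 1 and 4 and 8.86 and 9.02 on replicates 2 and 3. On P28 replicates 1 to 3 it was 12.01, 12.49 and 12.05. Over 8 macrophage genes it was 7.37, 8.22 and 8.56 on P28 replicates 1 to 3, and over 7 fibro-adipogenic genes it was 11.12, 10.38 and 10.16. The part of these in the spread of the sterol enzymes was not tested.

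**Figure D3:**
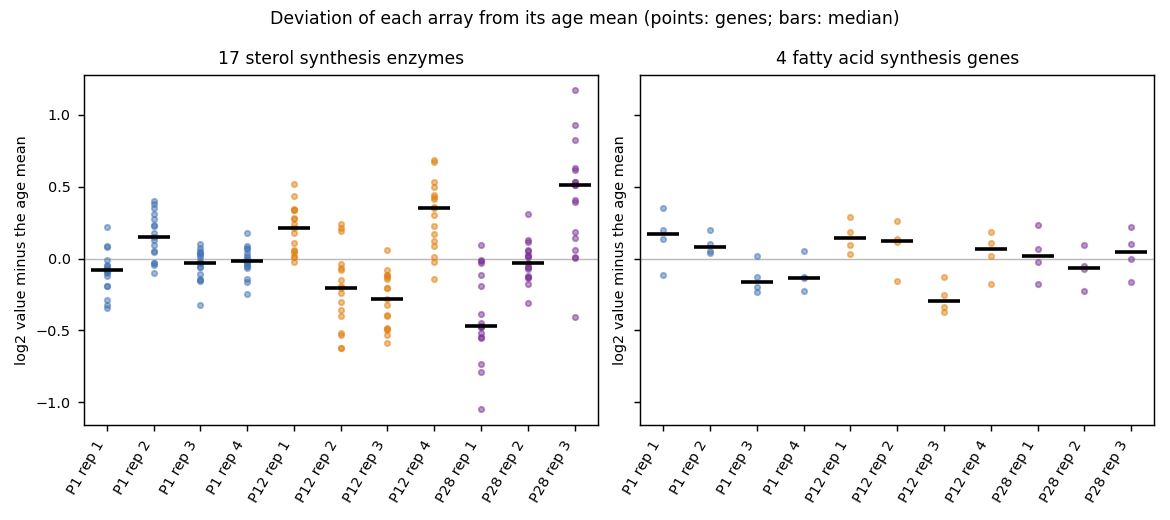
Log2 value of each gene on each array minus the gene's mean at that age, for the 17 sterol enzymes (left) and the 4 fatty acid genes (right), with points for genes and bars for the median. Among sterol enzymes P28 replicate 1 lies low for 15 of 17 and replicate 3 high for 13. P12 replicates 1 and 4 lie above replicates 2 and 3 for 13 of the 17.

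Several members gave different answers on different probe sets. Of the 27 measured members, 18 had more than 1 probe set, and 62 probe sets in all were tested over all 45101 on the array. From P1 to P28, 19 of the 62 rose and 3 fell, where 17.6% of all probe sets rose and 17.4% fell. Hmgcs1 is the clearest case: its brightest probe set changed by 0.17, while 3 others rose by 0.85, 1.01 and 1.22, and the mean of all its probe sets rose by 0.63 (adjusted p = 0.0159). For Hsd17b7, 2 dimmer probe sets rose by 0.87 and 1.52 while the brightest changed by -0.03. For Acly, 1 dimmer probe set rose by 0.60 while the brightest changed by -0.32. On Scap a dim probe set fell by 0.55, to 3.85, close to the Trp controls. Idi1 (1.33 and 1.06) and Insig2 (0.96, 0.86 and 1.06) rose on each of their probe sets. Of the 3 probe sets of Elovl6, 2 fell (-0.66 and -0.88) and the other changed by -0.13. From P1 to P12, with limma over all probe sets, those used for Idi1, Insig1 and Sc5d passed. Those used for Hmgcs1 (adjusted p = 0.0524) and Stard4 (adjusted p = 0.0631) did not, while another probe set of Stard4 rose by 1.02.

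**Figure D4:**
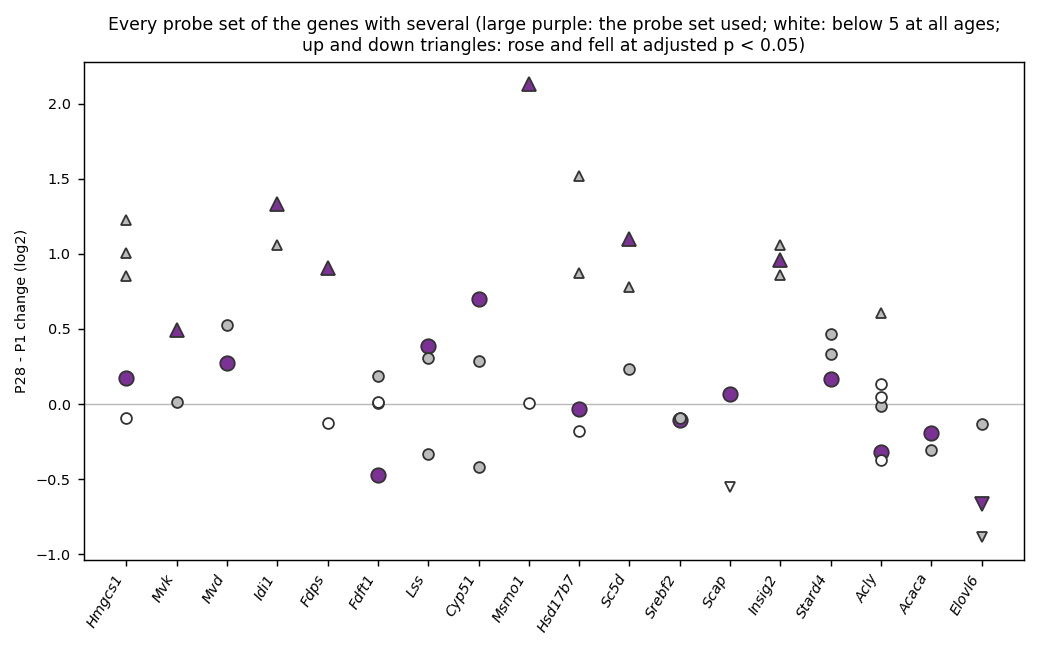
Log2 change from P1 to P28 of every probe set of the 18 members that have several, by gene, with the probe set used in large purple and probe sets below 5 at all ages in white. Upward and downward triangles passed an adjusted p under 0.05 over all probe sets (Cyp51 misses it there, adjusted p = 0.0563); Hmgcs1, Hsd17b7 and Acly have other probe sets that rose where the brightest did not.

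Genes of the same pathways outside the list were counted by group. Over all genes, 4.53% rose and 2.04% fell from P1 to P12, and 15.7% rose and 15.7% fell from P12 to P28. From P1 to P28, 20.1% of all genes rose and 16.4% fell. In the group of other sterol synthesis enzymes (3 measured), Cyb5r3, a reductase that supplies electrons to sterol and fatty acid desaturation, rose by 0.74 ± 0.13 from P1 to P12 and by 1.04 ± 0.14 from P1 to P28, and neither Lbr nor Erg28 passed. Of 8 genes of SREBP processing and turnover, 0 rose and 0 fell from P1 to P12, 0 rose and 2 fell from P12 to P28, and 1 rose and 3 fell from P1 to P28. The protease gene Mbtps2 fell by 0.68 and Erlin2, which takes part in sterol-dependent protein turnover, by 0.87 from P1 to P28, and the ubiquitin ligase gene Fbxw7 fell by 0.50 while the ligase Rnf139 rose by 0.55. Among 9 genes of the isoprenoid branches, Pggt1b, a subunit of the enzyme that attaches geranylgeranyl groups to proteins, fell by 0.94 after P12 and fell by 0.85 against P1. Pdss2, of coenzyme Q synthesis, fell by 0.45 from P12 to P28. Icmt (0.48) and Dhdds (0.38) rose from P1 to P28, and 0 of the 9 passed from P1 to P12.

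Of 11 measured genes of sterol uptake, storage and efflux, 1 rose from P1 to P12 (Npc1, which lets cholesterol out of lysosomes, by 0.52 ± 0.15). From P12 to P28 4 rose and from P1 to P28 5 rose, and 0 fell in any comparison. The shares of all genes that rose were 4.53%, 15.7% and 20.1%. The efflux pumps Abca1 and Abcg1 rose by 1.37 ± 0.32 and 0.96 ± 0.20 from P12 to P28. The sterol-sensing receptor gene Nr1h3 rose by 0.61 ± 0.16 and Lrpap1, a chaperone of lipoprotein receptors, by 0.57 ± 0.15. Abca1 was at 8.98 on P1 replicate 1, near the P28 arrays (8.47 to 9.21), and at 7.40 to 7.54 on the other P1 arrays.

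Of 18 measured genes that supply, lengthen or desaturate fatty acids, 1 rose from P1 to P12 (4.53% of all genes). From P12 to P28, 7 rose and 1 fell (15.7% and 15.7% of all genes). From P1 to P28, 11 rose and 0 fell (20.1% and 16.4% of all genes). Scd1, the desaturase that makes monounsaturated fatty acids, was at 7.10, 6.18, 6.17 and 6.07 at P1, at 7.29, 6.24, 6.33 and 7.14 at P12, and at 10.87, 10.20 and 10.29 at P28. The P28 arrays were far above the rest, and the rise from P12 was 3.70 ± 0.29 (adjusted p = 5.02e-07). Its paralog Scd2 changed by -0.09 ± 0.25 in the same comparison. The carbohydrate-responsive lipogenic factor Mlxipl rose by 1.65 ± 0.22, the acetyl-CoA synthetase Acss2 by 1.20 ± 0.16 and the malic enzyme Me1, which supplies NADPH, by 0.88 ± 0.21 from P12 to P28. Acsl3, which activates fatty acids, fell by 0.71 ± 0.22 there.

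**Figure D5:**
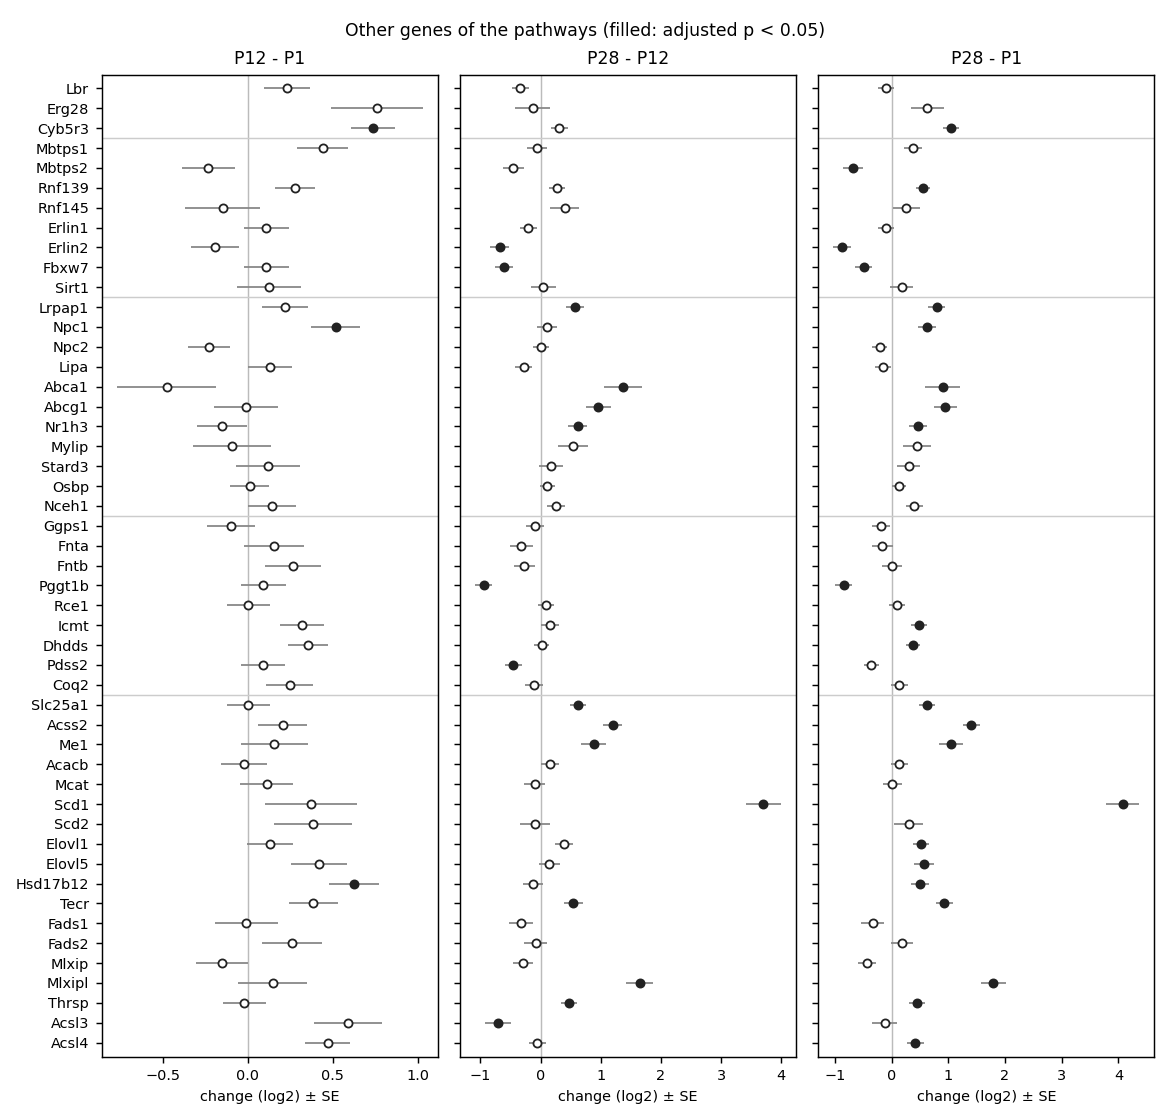
Log2 change ± SE of the 49 measured genes of 5 pathway groups, in order other sterol enzymes, SREBP processing, sterol uptake and efflux, isoprenoid branches, and fatty acid supply and desaturation, in the 3 comparisons, each with its own x axis. Filled points passed an adjusted p under 0.05; Scd1 stands apart at 3.70 in P28 - P12 and 4.07 in P28 - P1.

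Markers of other cells also differed at P28, and they are counted below beside the 15.7% of all genes that rose from P12 to P28. In bulk samples fewer cells of a type and less RNA per cell cannot be told apart. The mean over 8 muscle fibre genes was 8.20 to 8.54 at P1, 8.86 to 10.10 at P12 and 12.01 to 12.49 at P28, and 8 of 8 rose from P12 to P28. Endothelial genes (8 measured, 7 rose from P12 to P28) averaged 5.98 to 6.74, 6.28 to 7.03 and 8.01 to 8.84. Fibro-adipogenic genes (7 measured, 5 rose) averaged 9.10 to 9.56, 8.85 to 9.08 and 10.16 to 11.12, and macrophage genes (8 measured, 4 rose) 6.76 to 7.21, 6.46 to 6.84 and 7.37 to 8.56. Schwann and myelin genes (5 measured, 0 rose) averaged 7.35 to 7.56, 7.32 to 7.57 and 7.34 to 8.17.

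Adipocyte genes (6 measured, 3 rose from P12 to P28) averaged 5.44 to 5.75 at P1, 5.29 to 5.44 at P12 and 6.01 to 6.16 at P28. Pparg, a factor of fat cell differentiation, rose by 0.51 ± 0.17, and the fatty acid carrier Fabp4, which endothelial cells also make, rose by 2.29 ± 0.27. Retn went the other way, with a change of -0.29 ± 0.14 from P12 to P28 that did not pass. From P1 to P28 Retn fell (-0.63 ± 0.14), and all P28 arrays were below all P1 arrays. The adipocyte-defining gene Adipoq also passed as a rise, from a P12 mean of 3.07 that lay below the Trp controls to 4.54 at P28, so its change is only a bound and no size is given. Cidec (4.19 at P28) and Lep were likewise near the Trp controls. Proliferation genes (9 measured) averaged 9.24 to 9.89 at P1, 10.12 to 10.74 at P12 and 9.16 to 9.64 at P28. From P1 to P12 6 rose (4.53% of all genes), and from P12 to P28 8 fell (15.7% of all genes). The part of any of these lists in the changes of the lipid synthesis genes was not tested.

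With the Gapdh 3' to 5' difference as a covariate, 2 members rose and 2 fell from P12 to P28 (14.2% and 8.66% of all genes), and 7 rose and 1 fell from P1 to P28 (19.0% and 9.48%). The calls lost from P12 to P28 were those of Acly (-0.11), Ebp (0.58), Fdft1 (-0.75) and Tm7sf2 (0.76). From P1 to P28 they were those of Nsdhl (0.58), Fdps (0.48), Mvk (0.34), Sqle (1.00) and Cyp51 (0.84). The changes of Sqle and Cyp51 were larger there than without the covariate (0.90 and 0.70). The covariate did not overlap between P28 (0.79 to 0.99) and the other ages (1.32 to 3.05), so the 2 cannot be fully told apart. Calls were gained by Scap (0.58) and Stard4 (-0.97) from P12 to P28 and by Insig1 (0.93) and Srebf1 (0.71) from P1 to P28. Between P1 and P12, 9 members rose with array set as a block in a fit without the P28 arrays (8.42% of all genes). In that fit without the block, 8 rose (4.62% of all genes). Within array set 1, 0 rose (0.39% of all genes), and within array set 2, 3 rose (3.66%), where the median changes of the members were 0.32 and 0.42. Of the 5 calls between P1 and P12, 2 were left without P1 replicate 1, and 1 remained on leaving out P12 replicate 1 or 4 or P1 replicate 3 or 4. Without P12 replicate 3, 6 members fell from P12 to P28, and without P28 replicate 3, 5 fell, while 5 rose without P12 replicate 4.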

How the data were processed

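Cells were sorted for GFP from muscle of Pax3GFP/+ mice at 3 ages, and biotin-labelled cDNA was hybridised to 11 Affymetrix Mouse430_2 arrays. For each probe set the deposited value is a log2 intensity summary from RMA, per the submitters' processing notes, which list Affymetrix Expression Console, RMA and affy with no version. They were used as deposited. Precision is limited by how many arrays there are. Of 45101 probe sets, 34958 had 1 gene symbol, 932 several and 9211 none in the platform annotation, and 0 symbols needed an update to RefSeq.

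Each gene took its single-symbol probe set with the highest mean. Group means over all 11 arrays were fitted with limma 3.58.1 in R 4.3.3 (lmFit, contrasts, eBayes; two-sided, Benjamini-Hochberg over 18194 genes). The members and all lists were chosen with earlier results of these data known, so no list was tested. Values on every array are given for members called in any comparison and for Srebf1, Srebf2, Scap, Insig1 and Insig2, and for other groups up to 4 called genes (Scd1, Abca1, Scd2, Acsl3, Lbr and Erg28 were described further after their values were seen). On simulated data, a log2 change of 1 was recovered for 82.1% of genes between P1 and P12, 73.1% between P12 and P28 and 70.1% between P1 and P28, and one of 0.5 for 20.9%, 11.9% and 19.4%. There 67, 67 and 66 of the 18194 genes were given changes of 0.5, 1 and 2. In the data 6.57%, 31.4% and 36.6% of all genes passed in these comparisons. The adjusted p depends on that share, so recovery in the data can differ from these figures.

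Replicate numbers are shared between ages. Deviations of same-numbered P1 and P12 arrays from their age means correlated at 0.146, 0.265, 0.339 and 0.18. Of the 11 arrays, 5 correlated best with an array of their own number at another age. These numbers were therefore taken as possible pairs only in the fit with replicate number as a block, and the main fit holds no pairing. Those with P28 arrays correlated at -0.085 to 0.129. A comparison of the INSIG and SREBP proteins was planned and not run.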

Additional observations from a re-analysis of the deposited data

Results flagged for a closer look

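Among 54 groups of 4 arrays (27 members at P1 and at P12), 2 held an array set apart from the other 3 by Dixon's criterion, of the order that chance gives at about 1 in 20 groups. Mvk was at 6.95 on P1 replicate 1, below the other P1 arrays at 7.19 to 7.23. Fdft1 was at 10.09 on P1 replicate 2, above the other P1 arrays at 9.53 to 9.59.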

How the results depend on the processing

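Of the 22 member calls in the 3 comparisons, 8 were kept under every setting run and 12 were kept without any 1 array. The kept calls were those of Ebp, Elovl6, Idi1, Insig2, Msmo1 and Sc5d from P1 to P28 and of Elovl6 and Insig2 from P12 to P28. Over the 20 members followed under each setting (those called in any comparison and the 5 regulators), and among the settings other than leaving out an array, calls were lost 14, 7 and 13 times and gained 15, 10 and 17 times between P1 and P12, between P12 and P28, and between P1 and P28, in that order. The only called value that changed sign was Acly in P28 against P12 (0.014 when its probe sets were averaged). The cause of these shifts was not tested.

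The 5 rises from P1 to P12 became 9 with array set as a block over only the 2 ages, and 8 with only the 2 ages and no block. They became 8 with array weights, 1 after quantile normalization, 0 within array set 1 and 3 within array set 2 (both have fewer arrays). The 1 fall from P1 to P28 became 6 after quantile normalization and 2 with replicate number as a block. The 3 falls from P12 to P28 became 5 with array weights, 1 when probe sets were averaged per gene, 6 after quantile normalization, 1 without _x_at and _s_at probe sets and 5 without dim genes. Leaving out each array in turn gave 1 to 6 rises from P1 to P12, 7 to 12 rises and 1 to 2 falls from P1 to P28, and 2 to 5 rises and 2 to 6 falls from P12 to P28. It gave 0 falls from P1 to P12 throughout (limma, with 0 at an unadjusted p under 0.05 in the fit with all arrays).

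The median change of the members from P12 to P28, -0.01, lay near 0 and became 0.0213 with the 3' to 5' covariate, 0.0348 with averaged probe sets, 0.0104 with median centring, 0.0193 with replicate number as a block and 0.054 without _x_at and _s_at probe sets, and ran from -0.22 to 0.14 with 1 array left out. The medians of the other comparisons stayed positive (0.27 to 0.45 and 0.18 to 0.47 with 1 array left out).

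With replicate number as a block 4 members rose from P1 to P12. The call of Hmgcs1 was lost there. Cyp51 lost its call from P1 to P28, and Srebf1 and Acly (P1 to P28) and Nsdhl (P12 to P28) gained one. The block changed no other call of the 20 members followed.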
